A study of Mus musculus with 14 samples.

Results

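The 8 genes described here carry or answer bone morphogenetic protein (BMP) signals in mouse embryonic stem cells: the ligand Bmp4, the receptor Bmpr1a, the inhibitory Smads Smad6 and Smad7, and the Id genes Id1, Id2, Id3 and Id4. They were taken by gene symbol from the deposited tables of 36335 named genes, where all 8 were found. BMP ligands bind paired type I and type II receptor kinases, which phosphorylate Smad1, Smad5 and Smad9. These receptor-regulated Smads enter the nucleus with Smad4 and switch on target genes, of which the Id genes are among the best known. Id proteins bind E proteins and keep them from pairing with tissue-specific basic helix-loop-helix factors. In mouse embryonic stem cells, BMP4 together with LIF is known to hold back differentiation through Id genes.

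Total and newly made RNA were measured in paused E14 embryonic stem cells that lacked Mettl3 (Mettl3-KO, 8 libraries) and in WT E14 cells (6 libraries). METTL3 is the catalytic subunit of the enzyme that writes m6A, a methyl mark on mRNA. Cells of both genotypes were grown on gelatin in serum and LIF with 200 nM INK128, an mTOR inhibitor that puts embryonic stem cells into a dormant, paused state, for 2 weeks. They were then labelled for 12 h with 100 µM S4U, a uridine analogue that is read as C after iodoacetamide treatment, and chased without S4U for 0, 1, 3 or 8 h (SLAM-seq). Mettl3-KO cells had 2 libraries at each time. WT cells had 2 at 1 h and at 8 h, and 1 at the other times. The labels do not say how the knockout was made, whether it is a single clone, or whether replicates came from separate cultures, so the spread behind each p-value may be technical.

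Total counts were between 6108570 and 26656352 in 12 libraries, called deep here, 7 of Mettl3-KO and 5 of WT. The other 2 were shallow and stood apart: Mettl3-KO 3 h replicate 2 had 602485 counts and WT 1 h replicate 2 had 49159. Levels are given as CPM, counts scaled to a common library total that was adjusted by the TMM method. The summed level of 7 fibroblast markers was 313 CPM in Mettl3-KO 3 h replicate 2, against at most 20.2 CPM in any deep library. Pax6, a neural marker, was at 285 CPM in that library and at 149 CPM in WT 1 h replicate 2, against at most 20.6 CPM in the deep libraries. WT 1 h replicate 2 also had 2 counts (42.5 CPM) of the Y-linked gene Eif2s3y, where deep Mettl3-KO libraries had 40.8 to 68.8 CPM and deep WT libraries had 0.135 to 0.970 CPM, and it had 0 counts of Uty, another Y-linked gene. Whether this library holds WT cells as labelled was not tested, so its WT values are given apart. The tests below were run with and without these libraries, while the composition of the Id genes, the shares relative to 0 h and the correlations were computed in the deep libraries alone.

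Mettl3 was at 1.2 to 2.39 CPM in the deep Mettl3-KO libraries and at 22.8 to 74.8 CPM in the deep WT libraries (log2 change -4.62, SE 0.29, edgeR adjusted p = 2.74e-07 in 14 libraries). All of 10 pluripotency markers checked were detected, and their summed level was 3769 to 5002 CPM in deep Mettl3-KO libraries and 4411 to 5616 CPM in deep WT libraries. The genotypes differed in other ways too. Uty was at 4.66 to 25.1 CPM in deep Mettl3-KO libraries and at 0 to 0.162 CPM in deep WT libraries. The summed level of 7 neural markers, none of them at 0 throughout, was 456 to 739 CPM in deep Mettl3-KO libraries and 76.2 to 96.8 CPM in deep WT libraries, although Sox1, an early neural gene on the same list, was lower in deep Mettl3-KO libraries (4.59 to 13.3 CPM) than in deep WT libraries (41.7 to 68.2 CPM). That of 7 trophoblast markers, with Elf5 at 0 in every library, was 94.3 to 115 CPM in deep Mettl3-KO libraries and 46.7 to 63.2 CPM in deep WT libraries. That of 9 endoderm markers was 11.5 to 19.8 CPM in deep Mettl3-KO libraries and 27.7 to 36.9 CPM in deep WT libraries, with Afp at 0 in every library. That of the 7 fibroblast markers was 3.78 to 8.83 CPM in deep Mettl3-KO libraries and 8.98 to 20.2 CPM in deep WT libraries, with Postn at 0 in every library. The part of these differences in the results below was not tested, and in bulk RNA fewer cells of a type and less RNA per cell cannot be told apart.

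RefSeq promoter windows, 250 bases before to 50 bases after a transcript start on GRCm38.p6, were used for 6 of the 8 genes. None was found for Id1, and Smad7 was left out of the search. The start used is the outer end of the gene for 4 of the 6 genes, lies 26 bases inside the gene for Smad6 and lies 790 bases inside it for Bmpr1a. The windows of Bmp4 and Id2, whose RNA fell in Mettl3-KO cells, and of Id3 and Smad6, for which no change was detected, are shown 5′ to 3′. Capitals mark 2 motifs that Smad proteins are known to bind, searched on both strands: GGCGCC, bound by receptor-regulated Smads, and GTCT with its reverse complement AGAC, bound by Smad4.
Bmp4 (chr14:46390620-46390919, minus strand): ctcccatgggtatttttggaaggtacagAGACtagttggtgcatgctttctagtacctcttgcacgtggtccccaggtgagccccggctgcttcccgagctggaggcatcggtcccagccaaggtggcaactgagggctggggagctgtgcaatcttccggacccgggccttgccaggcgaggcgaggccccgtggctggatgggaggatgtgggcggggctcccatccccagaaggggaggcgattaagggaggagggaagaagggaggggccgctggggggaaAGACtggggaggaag
Id2 (chr12:25096043-25096342, minus strand): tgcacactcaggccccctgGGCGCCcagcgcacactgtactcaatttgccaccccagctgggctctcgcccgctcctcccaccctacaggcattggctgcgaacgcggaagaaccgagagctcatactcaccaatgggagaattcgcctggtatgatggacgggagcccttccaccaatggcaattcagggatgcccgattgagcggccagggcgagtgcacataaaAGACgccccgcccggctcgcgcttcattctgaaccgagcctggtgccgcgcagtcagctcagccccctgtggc
Id3 (chr4:136143572-136143871, plus strand): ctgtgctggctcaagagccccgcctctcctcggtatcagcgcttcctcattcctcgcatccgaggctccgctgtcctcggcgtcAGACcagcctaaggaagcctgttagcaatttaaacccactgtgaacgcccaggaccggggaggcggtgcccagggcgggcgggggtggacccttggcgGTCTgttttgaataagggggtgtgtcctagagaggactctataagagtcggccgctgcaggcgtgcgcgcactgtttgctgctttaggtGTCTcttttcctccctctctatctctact
Smad6 (chr9:64022010-64022309, minus strand): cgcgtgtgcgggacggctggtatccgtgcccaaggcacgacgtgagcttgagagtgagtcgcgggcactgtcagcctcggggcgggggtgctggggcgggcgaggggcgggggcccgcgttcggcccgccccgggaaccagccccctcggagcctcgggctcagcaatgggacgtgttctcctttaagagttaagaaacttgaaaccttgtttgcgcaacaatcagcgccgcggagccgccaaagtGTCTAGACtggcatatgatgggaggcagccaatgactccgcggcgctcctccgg

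The motif of receptor-regulated Smads lay in the Id2 window at -231, counted with the window's transcript start as 1, and had no match in the Bmp4, Id3 or Smad6 windows. It also lay in the windows of Id4 (-148) and Bmpr1a (-198). Positions for Bmpr1a and Smad6 are thus not distances from the outer end of the gene. Of 32851 promoter windows, 11.9% hold this motif. The Smad4 motif had 2 matches in the Bmp4 window, 1 in Id2, 3 in Id3, 1 in Bmpr1a and 2 in Smad6, and none in Id4. Of all windows, 88.0% hold it on a strand. In the Smad6 window the 2 matches join at that transcript start into the palindrome GTCTAGAC, noticed after the sequence was seen, which 0.213% of all windows hold.

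Total RNA of 4 of the 8 genes was lower in Mettl3-KO cells: Bmp4, Id1, Id2 and Smad7. None of the 8 was higher. By the same test across all genes (edgeR quasi-likelihood F test, Benjamini-Hochberg adjusted p under 0.05, 14 libraries), 9.83% of 14641 genes were lower, 11.9% were higher and 21.8% changed either way. The median log2 change was -0.59 over the 8 genes and 0.05 over all genes tested. In the 12 deep libraries the same 4 genes were lower, where 18.8% of all genes were, and the genotypes did not overlap for any of the 4. Every deep Mettl3-KO library was below every deep WT library for 10.6% of all genes.

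**Figure D1:**
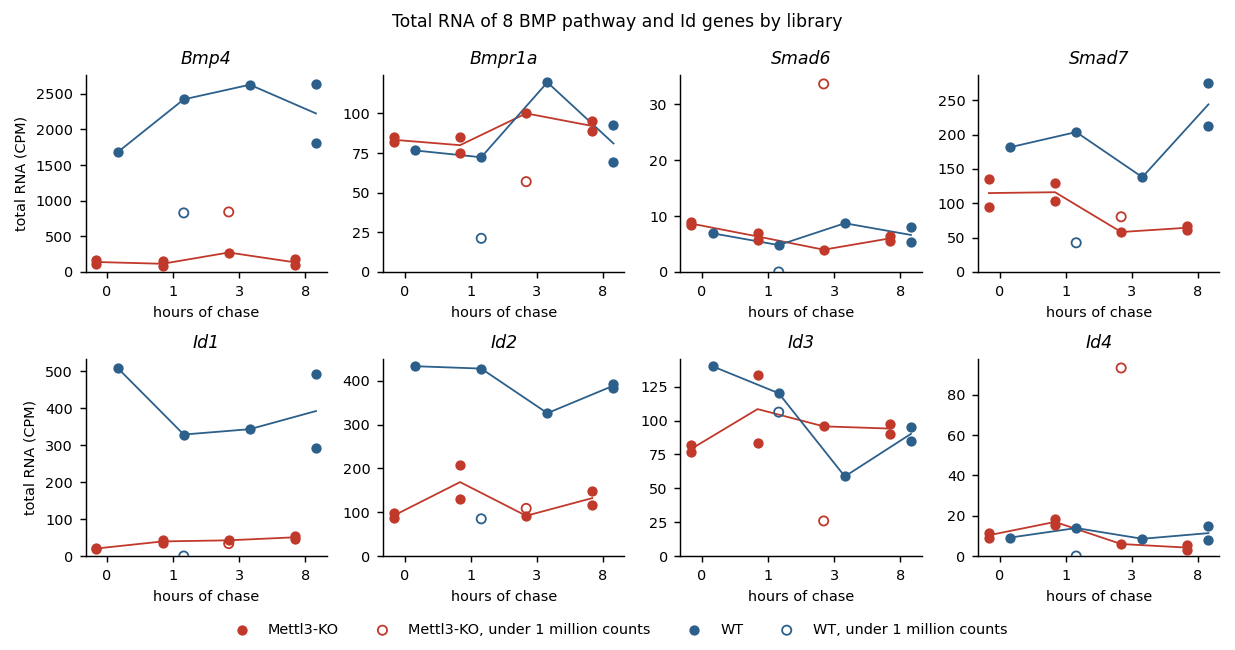
Total RNA of each gene by library, in CPM, against hours of chase (categories, not to scale). Red is Mettl3-KO and blue is WT. Filled points are deep libraries, joined by lines at their means, and open points are the 2 shallow libraries. Bmp4, Id1, Id2 and Smad7 lie lower in every deep Mettl3-KO library than in any deep WT library.

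Bmp4 (chromosome 14, 46383525 to 46390669), the ligand, showed the largest difference of the 8. Mettl3-KO libraries had 113 and 167 CPM at 0 h, 151 and 79.2 CPM at 1 h, 273 CPM in the deep library at 3 h, and 176 and 95 CPM at 8 h. WT libraries had 1679 CPM at 0 h, 2420 CPM in the deep library at 1 h, 2625 CPM at 3 h, and 2640 and 1805 CPM at 8 h. The highest deep Mettl3-KO library was thus far below the lowest WT one. The shallow libraries lay close together, at 842 CPM in Mettl3-KO and 828 CPM in WT. The deep libraries averaged 151 ± 65.2 CPM in Mettl3-KO (SD, n = 7) and 2234 ± 460 CPM in WT (SD, n = 5). Bmp4 fell by 3.58 on the log2 scale in 14 libraries (SE 0.38, edgeR adjusted p = 2.51e-05) and by 3.88 in the deep ones.

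Bmpr1a (chromosome 14, 34411061 to 34503336), a type I receptor for BMP2 and BMP4, did not pass the test. It had 75.0 to 100.1 CPM in deep Mettl3-KO libraries and 69.6 to 119.7 CPM in deep WT libraries, and the groups overlapped. The estimate was 0.08 on the log2 scale (SE 0.24, edgeR adjusted p = 0.866).

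Smad7 (chromosome 18, 75367365 to 75395935) and Smad6 (chromosome 9, 63953076 to 64022085) encode inhibitory Smads, which are induced by TGF-β family signals and block the receptors and Smads that carry them. Smad7 had 135 and 95 CPM at 0 h, 129 and 103 CPM at 1 h, 58.2 CPM in the deep library at 3 h, and 61.7 and 67.1 CPM at 8 h in Mettl3-KO. In WT it had 181 CPM at 0 h, 204 CPM in the deep library at 1 h, 138 CPM at 3 h, and 212 and 276 CPM at 8 h. The groups came close, at 135 CPM in the highest deep Mettl3-KO library and 138 CPM in the lowest deep WT one, without overlap. The shallow libraries had 80.3 CPM in Mettl3-KO and 42.5 CPM, which is 2 counts, in WT. Smad7 fell by 1.02 on the log2 scale (SE 0.30, edgeR adjusted p = 0.0243) and by 1.24 in the deep libraries (edgeR adjusted p = 9.97e-05). In 14 libraries this call was lost when 1 of 7 libraries was left out: Mettl3-KO 0 h replicate 2, either Mettl3-KO 8 h replicate, WT 1 h replicate 1, WT 3 h or either WT 8 h replicate. The edgeR adjusted p reached 0.0988 without Mettl3-KO 8 h replicate 1.

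Smad6 was a low gene, at 3.99 to 8.96 CPM in deep Mettl3-KO libraries and 4.82 to 8.73 CPM in deep WT libraries. The shallow Mettl3-KO library had 33.7 CPM, from 13 counts, and the shallow WT library had 0 counts. Its log2 change was 0.30 in 14 libraries (SE 0.41, edgeR adjusted p = 0.663) and -0.08 in the deep ones, so neither a difference nor a direction was seen.

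The 4 Id genes did not move together. Id1 (chromosome 2, 152736251 to 152737410), often used as a readout of BMP signalling, had 20.6 and 20.3 CPM at 0 h, 35.6 and 43.5 CPM at 1 h, 42.6 CPM in the deep library at 3 h, and 47.3 and 54.2 CPM at 8 h in Mettl3-KO. In WT it had 509 CPM at 0 h, 329 CPM in the deep library at 1 h, 343 CPM at 3 h, and 492 and 294 CPM at 8 h. Every deep WT library was above every Mettl3-KO library. The shallow Mettl3-KO library had 33.7 CPM, and the shallow WT library had 0 counts, which allows up to 63.7 CPM at 3 counts. Deep libraries averaged 37.7 ± 13.1 CPM in Mettl3-KO (SD, n = 7) and 393 ± 99.5 CPM in WT (SD, n = 5). Id1 fell by 3.19 on the log2 scale (SE 0.46, edgeR adjusted p = 0.000456) and by 3.40 in the deep libraries.

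Id2 (chromosome 12, 25093799 to 25096092) had 97.2 and 88.0 CPM at 0 h, 130 and 208 CPM at 1 h, 91.9 CPM in the deep library at 3 h, and 116 and 148 CPM at 8 h in Mettl3-KO. In WT it had 433 CPM at 0 h, 428 CPM in the deep library at 1 h, 326 CPM at 3 h, and 384 and 394 CPM at 8 h. No deep library overlapped with the other genotype. The shallow libraries had 109 CPM in Mettl3-KO and 85.0 CPM, from 4 counts, in WT. Id2 fell by 1.51 on the log2 scale (SE 0.28, edgeR adjusted p = 0.00179) and by 1.71 in the deep libraries.

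Id3 (chromosome 4, 136143822 to 136145392), which is commonly co-regulated with Id1, did not pass the test. It had 76.4 to 134 CPM in deep Mettl3-KO libraries and 58.7 to 140 CPM in deep WT libraries, and the mean was 94.1 ± 19.1 CPM in Mettl3-KO (SD, n = 7) and 99.8 ± 31.4 CPM in WT (SD, n = 5). Its log2 change over all 14 was -0.16 (SE 0.26, edgeR adjusted p = 0.722). Id4 (chromosome 13, 48261116 to 48266028), the least counted of the 4, had 3.08 to 18.3 CPM in deep Mettl3-KO libraries and 7.90 to 14.8 CPM in deep WT libraries. The shallow libraries had 93.2 CPM in Mettl3-KO, from 36 counts, and 0 counts in WT. Its log2 change was 0.09 in 14 libraries (SE 0.67, edgeR adjusted p = 0.954) and -0.47 in the deep ones (edgeR adjusted p = 0.238). On data simulated for the 14 libraries, the test of total RNA called 6.38% of genes with a log2 change of -1 and 16.3% with 1. At -2 and 2 it called 70.5% and 72%. Changes of 1 or less on the log2 scale could thus be missed for the genes that did not pass.

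**Figure D2:**
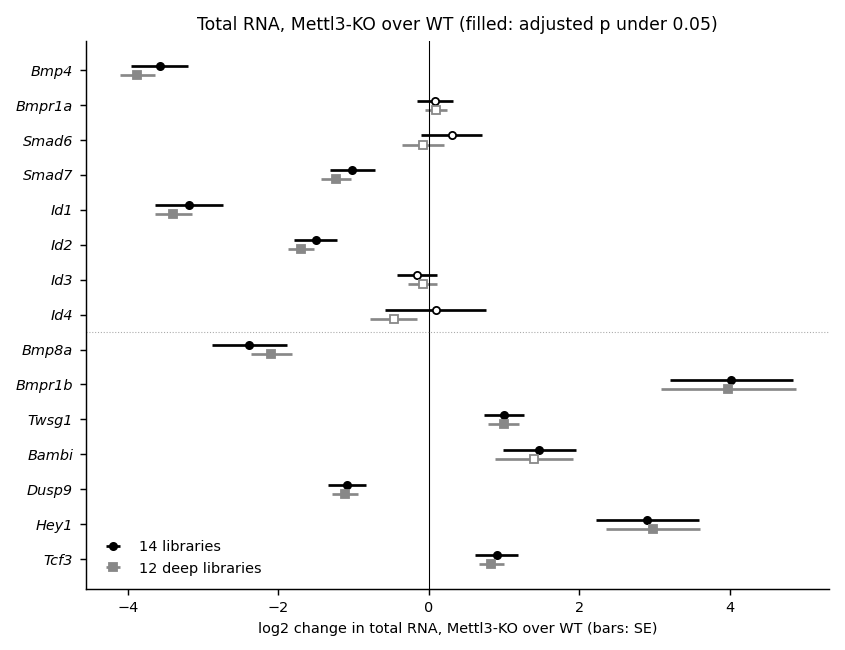
Log2 change of total RNA, Mettl3-KO over WT, for the 8 genes (above the dotted line) and for the other BMP pathway genes that passed the test (below it). Points are the edgeR estimates with bars of 1 SE, black for 14 libraries and grey for the 12 deep ones, filled where the adjusted p is under 0.05. Bmp4 (-3.58) and Id1 (-3.19) lie farthest to the left, and Id3, Bmpr1a, Smad6 and Id4 lie near 0.

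The Id family as a whole was therefore both smaller and differently composed. The summed level of Id1, Id2, Id3 and Id4 in the deep libraries was 267 ± 58.5 CPM in Mettl3-KO (SD, n = 7) and 897 ± 144 CPM in WT (SD, n = 5). It ran from 199 to 353 CPM in Mettl3-KO and from 737 to 1092 CPM in WT. Id1 made up 14% ± 3.88 of the summed Id counts in Mettl3-KO and 43.5% ± 6.04 in WT. Id3 made up 36.0% ± 6.61 in Mettl3-KO and 11% ± 2.25 in WT. The ranges of these shares did not overlap, since Id1 was at most 18.4% in Mettl3-KO and at least 36.9% in WT, and Id3 was at least 23.6% in Mettl3-KO and at most 13.5% in WT. Id2 kept a like share, 46.3% ± 6.47 in Mettl3-KO and 44.3% ± 4.83 in WT, and Id4 was at 3.68% ± 1.81 in Mettl3-KO and 1.25% ± 0.466 in WT. These are shares of 3′ end counts, used to compare genotypes and not genes, and they follow from the gene levels above.

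**Figure D3:**
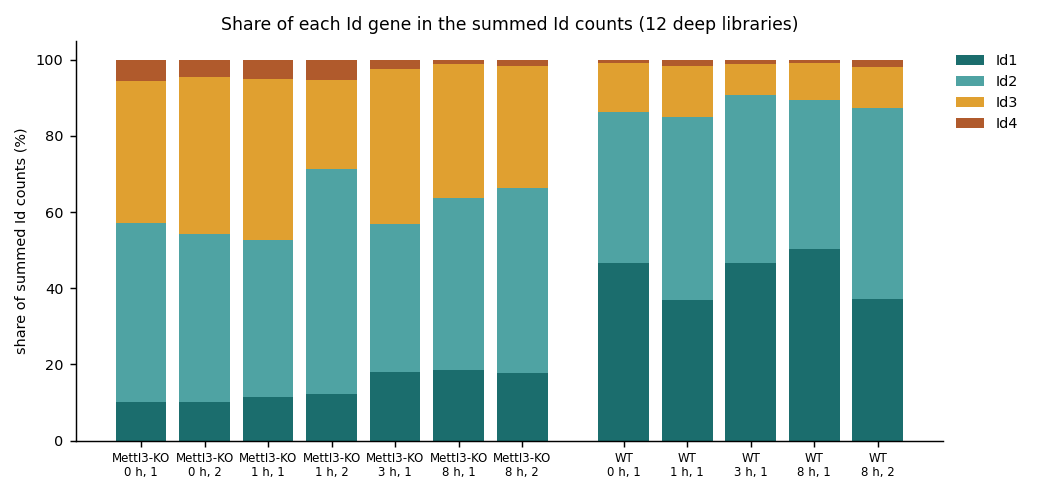
Share of Id1, Id2, Id3 and Id4 in the summed Id counts of each deep library, in percent, with 7 Mettl3-KO libraries on the left and 5 WT libraries on the right, ordered by hours of chase. The Id1 segment at the base takes at most 18.4% in Mettl3-KO and at least 36.9% in WT.

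Total RNA was next followed over the chase. In 14 libraries edgeR called none of them, and 0% of 14641 genes, for a slope in Mettl3-KO, a slope in WT or a difference in slope. At an unadjusted p under 0.05, 794 genes had a slope in Mettl3-KO, 496 in WT and 704 a difference, and DESeq2 called 555, 32 and 197. In the deep libraries Id4 was called, falling by 0.22 on the log2 scale per hour in Mettl3-KO (SE 0.06, edgeR adjusted p = 0.0422), where 2.06% of all genes fell. Its highest Mettl3-KO levels were the 15.6 and 18.3 CPM at 1 h and its lowest the 3.08 and 5.26 CPM at 8 h. The difference in slope was called for 0.528% of all genes in the deep libraries and for none of the 8. It was nearest for Smad7, at -0.16 per hour (SE 0.05, edgeR adjusted p = 0.118). Smad7 was lower at 3 h and 8 h than at 0 h and 1 h in the deep Mettl3-KO libraries. Id1 ran the other way in Mettl3-KO, with a slope of 0.11 per hour in the deep libraries (SE 0.04, edgeR adjusted p = 0.108).

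Newly made RNA was followed through T>C conversion counts. The labelled share of a gene is its conversion count as a percentage of its total count. The sources used here do not say if reads or bases with a conversion were counted, so shares are compared between libraries and not read as the fraction of new molecules. At the end of labelling the share over the whole library was 26.1% and 26.6% in Mettl3-KO and 39.4% in WT. It was 25.2% and 26.7% in Mettl3-KO and 30.8% in the deep WT library at 1 h. At 3 h it was 18.5% in the deep Mettl3-KO library and 19.9% in WT, and at 8 h 4.90% and 4.97% in Mettl3-KO and 4.52% and 3.72% in WT. The shallow libraries were out of order, at 6.90% in Mettl3-KO 3 h replicate 2 and 8.43% in WT 1 h replicate 2.

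At 0 h all 8 genes had lower labelled shares in both Mettl3-KO libraries than in the single WT library, as the whole library did. The share of Bmp4 was 22.6% and 25.5% in Mettl3-KO and 36.5% in WT. That of Id1 was 34.2% and 37.0% in Mettl3-KO and 56.9% in WT, and that of Id2 was 32.6% and 38.5% in Mettl3-KO and 53.1% in WT. Id3 had 52.0% and 46.1% in Mettl3-KO and 64.4% in WT. Smad7 had 30.6% and 27.3% in Mettl3-KO and 46.6% in WT, and Bmpr1a had 29.7% and 29.8% in Mettl3-KO and 45.2% in WT. The low genes were less even between replicates: Smad6 had 26.8% and 43.4% in Mettl3-KO and 48.4% in WT, and Id4 had 17.3% and 28.9% in Mettl3-KO and 43.8% in WT. With 1 WT library at 0 h, these shares have no WT spread. The 95% Clopper-Pearson interval of the Smad6 share in WT was 39.5% to 57.4%, from 128 counts, and it covers counting error only, since reads without molecular identifiers are not independent molecules.

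**Figure D4:**
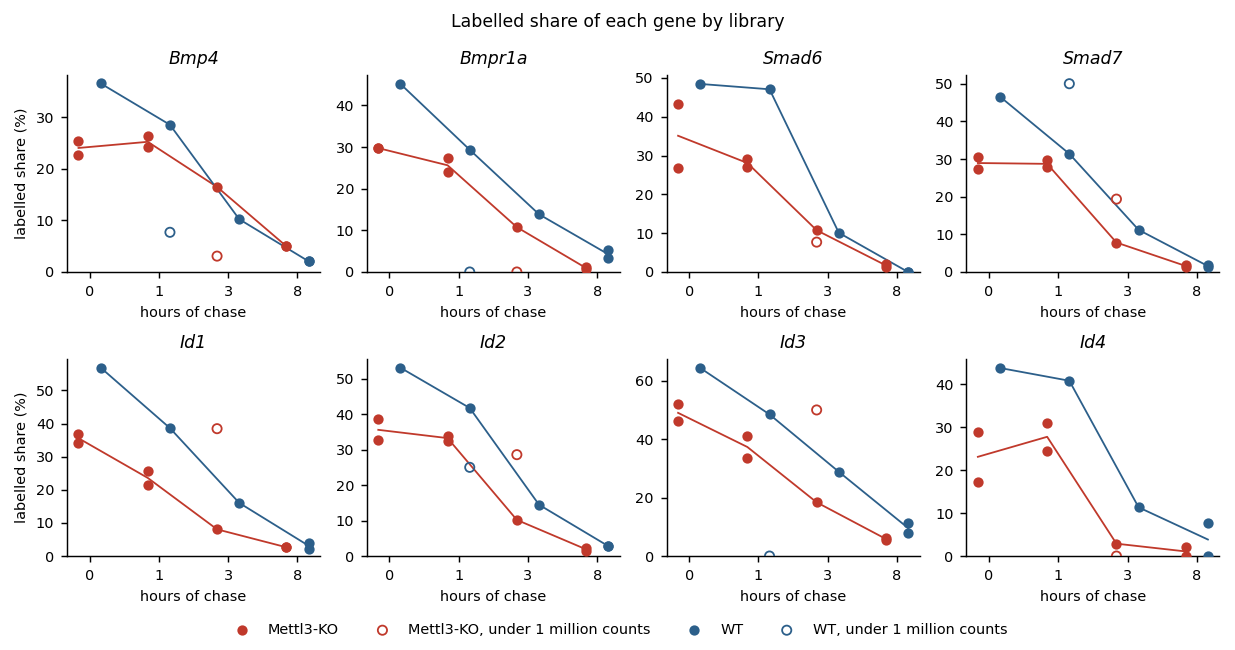
Labelled share of each gene by library, in percent of its total counts, against hours of chase (categories, not to scale). Colours and points are as in the plot of total RNA by library. Shares at 0 h are lower in Mettl3-KO than in WT for all 8 genes. The Bmp4 lines cross, with 16.5% in Mettl3-KO and 10.2% in WT at 3 h in the deep libraries.

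Labelled RNA at 0 h, per unit of total RNA in the library, was estimated from the fit over all chase times. That fit also gives the loss rates below, so the 0 h estimate is no separate measurement. This estimate was lower in Mettl3-KO for Id1, Bmp4 and Id2, 3 of the 8 genes, where 6.5% of 12678 genes were lower. Id1 fell by 4.30 on the log2 scale (SE 0.51, edgeR adjusted p = 1.67e-11), Bmp4 fell by 3.86 (SE 0.51, edgeR adjusted p = 3.06e-09) and Id2 fell by 1.81 (SE 0.48, edgeR adjusted p = 0.00676). The same 3 were called in the deep libraries, where 8.43% of all genes were lower. The other log2 changes were -0.90 for Smad7, -0.63 for Id3, -0.58 for Smad6, -0.21 for Id4 and -0.17 for Bmpr1a, and did not pass the test. The median over all genes was -0.37. In the 0 h libraries themselves, scaled conversion counts of Id1 were 7.03 and 7.50 CPM in Mettl3-KO and 290 CPM in WT. Those of Bmp4 were 25.6 and 42.5 CPM in Mettl3-KO and 614 CPM in WT. Those of Id2 were 31.7 and 33.9 CPM in Mettl3-KO and 230 CPM in WT. None of the 3 calls held when each gene's own total count was the scale. The differences were then -0.69 for Id1, -0.37 for Bmp4 and -0.32 for Id2, with edgeR adjusted p between 0.72 and 0.74, and 1 gene of all those tested was called. The Id2 call was also lost without Mettl3-KO 0 h replicate 1, WT 0 h or WT 1 h replicate 1, where the edgeR adjusted p was 0.0590, 0.0627 and 0.0850.

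During the chase the labelled RNA of all 8 genes fell in both genotypes, as did that of 88.3% of all genes in Mettl3-KO and 91.4% in WT. Without the 8 h libraries 0 of the 8 passed in either genotype. Of 12640 genes, 234 passed there in Mettl3-KO (205 falling) and 691 in WT (687 falling). In the deep libraries of those times 1 of the 8 passed in Mettl3-KO and 3 in WT. Of 12631 genes, 141 passed there in Mettl3-KO (all falling) and 2511 in WT (2507 falling). As a half-life, the hours in which the fitted labelled level is reduced by 50%, uncorrected for cells dividing, Bmp4 had 3.38 h in Mettl3-KO and 2.16 h in WT, and Id1 had 2.94 h in Mettl3-KO and 1.93 h in WT. Id3 had 2.67 h in Mettl3-KO and 2.63 h in WT, and Id2 had 1.85 h in Mettl3-KO and 1.90 h in WT. Smad7 had 1.52 h in Mettl3-KO and 1.81 h in WT, Bmpr1a 1.64 h in Mettl3-KO and 2.51 h in WT, and Id4 1.35 h in Mettl3-KO and 2.08 h in WT. Smad6 had 1.68 h in Mettl3-KO and 1.08 h in WT, resting on 4 conversion counts in the Mettl3-KO libraries and 0 in the WT libraries at 8 h. Estimates were thus longer in Mettl3-KO for Bmp4, Id1 and Smad6, shorter for Bmpr1a, Id4 and Smad7, and close for Id2 and Id3. Without Mettl3-KO 8 h replicate 2, the loss of Bmp4 label in Mettl3-KO no longer passed (edgeR adjusted p = 0.0848), and without the 8 h libraries no fall was seen (slope 0.055 log2 per hour).

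None of these differences in loss rate passed the test, which called 2.43% of all genes in 14 libraries and 5.68% in the deep ones. The difference, in log2 per hour and above 0 where loss was slower in Mettl3-KO, was 0.33 for Smad6 (SE 0.26), 0.18 for Id1 (SE 0.11), 0.17 for Bmp4 (SE 0.11), -0.21 for Bmpr1a (SE 0.11) and -0.26 for Id4 (SE 0.19). It was -0.11 for Smad7, -0.01 for Id2 and 0.01 for Id3. The median over all genes was 0.10 and over the 8 genes it was near 0. The smallest adjusted p, for Bmpr1a, was 0.305 by edgeR. In the deep libraries the smallest were those of Bmp4 (0.21, SE 0.08, edgeR adjusted p = 0.109) and Id1 (0.21, SE 0.08, edgeR adjusted p = 0.129). On data simulated for the 14 libraries, the test called 4.35% of genes with a difference of -0.25 and 2.08% with 0.25. At -0.5 and 0.5 it called 28.6% and 49.0%. Differences of the size estimated here could thus be missed.

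**Figure D5:**
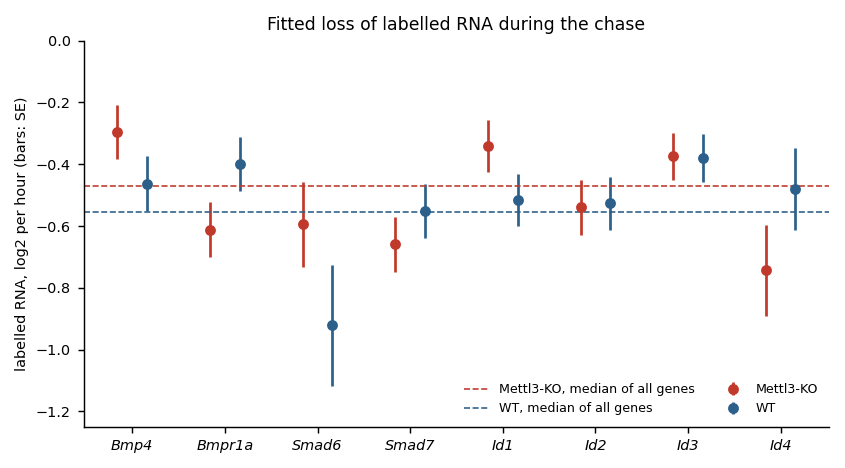
Fitted loss of labelled RNA in log2 per hour for each gene, in 14 libraries. Points are edgeR estimates with bars of 1 SE, red for Mettl3-KO and blue for WT. Dashed lines are the medians of all genes tested, -0.47 in Mettl3-KO and -0.55 in WT. Values nearer 0 mean slower loss, as for Bmp4 in Mettl3-KO.

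The labelled share of Bmp4 was also followed relative to its start. Relative to its share at 0 h, Bmp4 in Mettl3-KO stood at 105% at 1 h, 68.6% at 3 h and 20.8% at 8 h in the deep libraries. In WT it stood at 78.1% at 1 h, 28.0% at 3 h and 5.69% at 8 h. For the whole library these values were 98.5%, 70.2% and 18.7% in Mettl3-KO, and 78.1%, 50.4% and 10.4% in WT. Bmp4 thus ran close to the whole library in Mettl3-KO and below it from 3 h in WT. With its own total count as the scale in the 12 deep libraries, a setting chosen after the data were seen, the Bmp4 difference was 0.22 per hour (SE 0.05, edgeR adjusted p = 0.00453), where 5.65% of all genes were called. It was the 1 member of the 8 called there. With the same scale in 14 libraries it was 0.20 (edgeR adjusted p = 0.1001).

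For the other genes the shares left at 8 h were small in both genotypes. Id1 stood at 66.3%, 22.7% and 7.46% of its 0 h share at 1 h, 3 h and 8 h in Mettl3-KO, and at 67.9%, 28.2% and 5.50% in WT. Id2 stood at 93.4%, 28.6% and 5.30% in Mettl3-KO and at 78.6%, 27.2% and 5.27% in WT. Id3 kept 11.9% at 8 h in Mettl3-KO and 14.9% in WT. Smad7 kept 99.2% at 1 h in Mettl3-KO and 67.4% in WT, and at 8 h it kept 5.51% in Mettl3-KO and 3.38% in WT. Bmpr1a kept 3.15% at 8 h in Mettl3-KO and 9.42% in WT. Its shares at that time were 0.690% and 1.19% in the Mettl3-KO libraries and 5.24% and 3.27% in the WT libraries. Id4 had 0 and 3 conversion counts at 8 h in Mettl3-KO and 9 and 0 in WT. The count of 0 came from 35 and 98 total counts, which allow shares of up to 10.0% and 3.69% by the Clopper-Pearson interval, so no difference was detectable at this depth.

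The authors' deposited table of fitted half-lives, whose header gives no unit, holds 5 of the 8 genes. In the authors' deposited table Smad6 has 2.23 in Mettl3-KO and 1.37 in WT, Id2 has 2.20 in Mettl3-KO and 1.73 in WT, and Smad7 has 1.93 in Mettl3-KO and 1.72 in WT. Bmpr1a has 2.01 in Mettl3-KO and 2.35 in WT and Id4 has 1.73 in Mettl3-KO and 1.96 in WT in the same deposited table. The medians over the 6985 genes of the authors' deposited table are 2.52 in Mettl3-KO and 1.69 in WT. For Smad7 the order of the genotypes is thus the reverse of the half-lives fitted here. Id2, close between genotypes here, is longer in Mettl3-KO in the deposited values. Bmp4, Id1 and Id3 have no entry there.

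Of 47 other BMP pathway genes, 38 passed the count filter for total RNA, 5 were higher in Mettl3-KO and 2 were lower. These 7 of 38 are near the 21.8% called among all genes (11.9% higher, 9.83% lower). Their median log2 change was 0.20, against 0.05 over all genes tested. Among the ligands Bmp8a was the 1 lower gene of 6 tested, at 5.68 to 20.8 CPM in deep Mettl3-KO libraries and 33.2 to 53.1 CPM in deep WT libraries (log2 change -2.39, SE 0.50, edgeR adjusted p = 0.00416). Bmp8b, its neighbour in the ligand family, had 2.49 to 5.36 CPM in deep Mettl3-KO libraries and 1.56 to 2.30 CPM in deep WT libraries, and passed in the deep libraries (edgeR adjusted p = 0.018) and not in all 14 (edgeR adjusted p = 0.082). Of 8 receptors and co-receptors, Bmpr1b, another type I receptor, was the 1 higher gene, with 133 counts over the Mettl3-KO libraries and 4 over the WT libraries, at no more than 1.2 CPM in any deep library (edgeR adjusted p = 0.00302). Acvr2a, a type II receptor shared with activins, had 11.1 to 20.4 CPM in deep Mettl3-KO libraries and 9.98 to 16 CPM in deep WT libraries and did not pass.

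None of the 3 signal-carrying Smads tested passed: the log2 change was -0.16 for Smad1, -0.90 for Smad5 (SE 0.58) and -0.10 for Smad4, while Smad9 had too few counts to test. Of 8 antagonists tested, Twsg1, which binds BMPs outside the cell, rose by 1.00 on the log2 scale (SE 0.26, edgeR adjusted p = 0.0143). Its level was 22.4 to 35.3 CPM in deep Mettl3-KO libraries and 9.23 to 20.4 CPM in deep WT libraries. Of 6 inhibitors inside the cell or at the membrane, Bambi, a decoy receptor, was higher by 1.47 (SE 0.49, edgeR adjusted p = 0.0441), with 8.63 to 46.7 CPM in deep Mettl3-KO libraries and 1.82 to 20.3 CPM in deep WT libraries. Its groups overlapped, and the edgeR adjusted p was 0.0537 in the deep libraries. Among 4 further targets tested, Dusp9, a phosphatase of ERK known as a BMP target in mouse embryonic stem cells, fell by 1.1 (SE 0.25, edgeR adjusted p = 0.00655) and Hey1, a Hairy-related repressor also induced by Notch, rose by 2.90 (SE 0.69, edgeR adjusted p = 0.00758) at levels of at most 3.35 CPM in deep libraries. Of 3 E proteins, the partners that Id proteins bind, Tcf3 (the E2A gene) rose by 0.90 (SE 0.28, edgeR adjusted p = 0.0340), with 85.4 to 111 CPM in deep Mettl3-KO libraries and 38.8 to 80.9 CPM in deep WT libraries. In the deep libraries 8 of the 38 were higher and 4 lower, where 22.4% of all genes were higher and 18.8% lower.

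Labelled RNA at 0 h, estimated by the same fit over all chase times, was tested for 30 of these genes. It was lower in Mettl3-KO for 3, Bmp8a, Dusp9 and Chrd, and higher for none. Of all genes, 6.5% were lower and 1.33% higher. Bmp8a fell by 2.64 on the log2 scale (SE 0.72, edgeR adjusted p = 0.00926) and Dusp9 fell by 1.73 (SE 0.49, edgeR adjusted p = 0.0132), both of them also lower in total RNA. Chrd, the secreted BMP antagonist chordin, fell by 2.99 (SE 1.02, edgeR adjusted p = 0.0493), and its call was lost in the deep libraries (edgeR adjusted p = 0.0669). The loss rate of label did not pass for any of the 30 in 14 libraries (2.43% of all genes passed). In the deep libraries (5.68% of all genes) it passed for Gdf3, a TGF-β family ligand of pluripotent cells at 236 to 297 CPM in deep Mettl3-KO and 178 to 280 CPM in deep WT libraries, whose loss was slower in Mettl3-KO by 0.32 log2 per hour (SE 0.09, edgeR adjusted p = 0.0152). Gdf3 was named after its values were seen.

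Across the 12 deep libraries, Bmp4, Id1, Id2 and Smad7 had high correlations with each other. Pearson's r of log2(CPM + 1) was 0.95 between Id1 and Id2, 0.94 between Id1 and Bmp4, 0.85 between Id2 and Bmp4, and 0.70 between Id1 and Smad7. Id3 had r of 0.16 with Id1 and 0.05 with Bmp4. The genes most like each member by this measure, out of 14640 compared, were Pcolce, Eif3j2 and Tor1aip2 for Id1, with r of 0.99 for the first, and Lmna, Itgb4 and Rapgef3 for Bmp4, with r of 0.98. They were Nkx6-2, Synpo2l and Cmklr1 for Id2, and Tgfbi, Ror2 and Xndc1 for Smad7. For the genes that did not pass the genotype test, Gm16201, Tor1aip1 and Gins2 were nearest to Id3, Zswim9, Ifitm7 and Jmjd7 to Id4, Tbc1d19, Ybx2 and Klc1 to Bmpr1a, and Gm45477, 4930590J08Rik and Pcmtd2 to Smad6. All these values rest on the same 12 libraries and their 2 genotypes, and are a description. Bmp4, Id1, Id2 and Smad7 are the genes lower in Mettl3-KO in these libraries, so r between them reflects that difference. Correlations within a genotype were not computed.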

How the data were processed

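Total RNA and T>C conversions were counted per gene in 14 libraries by 3′ end sequencing of polyA RNA from equal cell numbers, per the labels' protocols. The labels also give 100 ng of RNA for every library. CPM are scaled to a common library total and are thus relative levels, not amounts per cell. The authors deposited whole-number counts of both kinds, a table of log2 values they normalized, used only as an alternative, and other fitted values, their half-lives with no unit in the header. Tools named in the submitters' processing notes are edgeR 3.32.1, Subread 1.5.0 with featureCounts, and Trim Galore 0.4.0, and the build is mm10. How reads were aligned and conversions called is not given in those notes. Groups and replicate numbers came from the titles in the labels. For 152 genes a library holds more conversion than total counts, none of them among the 8. The entry without a gene name, 0.00707% to 0.0312% of counts, was left out.

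edgeR 4.0.16 in R 4.3.3 fitted robust quasi-likelihood models across all genes in 14 libraries. Total counts (at least 10 in at least 6 libraries) were scaled by TMM. Models held genotype with chase time as a factor, or genotype, hours and their interaction. Conversion counts (at least 10 in at least 3 libraries) took the TMM-scaled total as library scale, with genotype, hours and their interaction. WT at 0 h and 3 h has 1 library, assumed to vary like the others. SE is the log2 effect over the square root of F. Adjusted p is Benjamini-Hochberg, with a threshold of 0.05. DESeq2 1.42.0, limma 3.58.1, other scalings and filters, and each library left out were alternatives. Scripts were tested on simulated data. Named genes were Mettl3, the 8 genes, the pathway genes past the threshold with up to 2 more per role (all 3 signal-carrying Smads tested, the last named after its values were seen), and the 3 genes most like each of the 8. The 8 genes and the lists were chosen with earlier results of these data known. Gene positions and promoter windows are RefSeq's on GRCm38.p6, the assembly of mm10.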

Additional observations from a re-analysis of the deposited data

Results flagged for a closer look

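In the total RNA of the 8 genes, 4 of the 16 sets of libraries tested, 1 per gene and genotype, held a library farther from the others than Dixon's test allows at the 95% level, where chance gives about 1 in 20. All 4 were a shallow library. In Mettl3-KO 3 h replicate 2, Bmp4 was at 842 CPM, where the other Mettl3-KO libraries had 79.2 to 273 CPM. Id4 was at 93.2 CPM there, where the others had 3.08 to 18.3 CPM, and Smad6 was at 33.7 CPM, where the others had 3.99 to 8.96 CPM. In WT 1 h replicate 2, Id2 was at 85.0 CPM, where the other WT libraries had 326 to 433 CPM.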

How the results depend on the processing

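In total RNA, Bmp4, Id1 and Id2 stayed lower and past the threshold under every alternative run, and Smad7 lost its call with no count filter (edgeR adjusted p = 0.0829) and without single libraries, so 3 to 4 of the 8 were called with a library left out. Depth limits Id4 and Smad6, which rest on a few counts at 8 h, and the 2 shallow libraries widened the spread of the 14-library fit. WT rests on 1 library at 0 h and at 3 h. The cause of the changes below was not tested unless said.

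Without the shallow libraries the genes called went to 5998 for total RNA (3187 in 14 libraries), 622 for the total slope in Mettl3-KO (0), 77 for its difference between genotypes (0) and 720 for the difference in label loss (308), and 1 of the 8 genes, Id4, was called for a total slope. The total change was then -0.47 for Id4 and -0.080 for Smad6, the loss difference 0.014 for Id2, the slope difference 0.022 for Bmpr1a and 0.029 for Id2, and the WT slope -0.014 for Id1 and -0.015 for Id2, each with its sign turned. DESeq2 called 4817 genes for total RNA, 555, 32 and 197 for total slopes in Mettl3-KO, in WT and their difference, and 692 for the loss difference. Total slopes in Mettl3-KO were -0.0031 for Bmp4 and -0.0042 for Id3 by DESeq2, and -0.0030 and -0.0042 with its size factors. With no count filter 2070 genes were called for total RNA.

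With each gene's own total as the scale, 1 gene and 0 of the 8 were called for label at 0 h (993 and 3 otherwise), and 9 and 0 in the deep libraries, chosen after the data were seen. There 716 genes and 1 of the 8, Bmp4, were called for the loss difference, Id3 was at -0.048 and Smad7 at 0.059; in 14 libraries they were at -0.059 and 0.063. TMM on conversion counts removes by construction the loss common to all genes. It called 2766 genes for a label slope in Mettl3-KO, 1446 above 0 and 1320 below, where the main fit called 11195. Of the 8, it called 2 in Mettl3-KO, below 0 (8 in the main fit). In WT it called 929 genes, 562 above 0 and 367 below, and 0 of the 8 (11593 and 8). Loss slopes in Mettl3-KO were then 0.12 for Bmp4, 0.079 for Id1 and 0.042 for Id3, and in WT 0.042 for Bmp4, 0.11 for Bmpr1a, 0.12 for Id3 and 0.017 for Id4. The loss difference of Id3 was -0.079, and label at 0 h was 0.30 for Bmpr1a and 0.23 for Id4. Limma on the authors' normalized values called 1011 genes for the loss difference, with Id2 at 0.016.

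Without the 8 h libraries, which leaves fewer samples, 234 genes and 0 of the 8 were called for a label slope in Mettl3-KO. Of the 234, 205 fell and 29 rose. In WT 691 genes (687 falling) and 0 of the 8 were called, and 25 genes for the difference. In the deep libraries of these times, chosen after the data were seen, the calls were 141 and 1 in Mettl3-KO, 2511 and 3 in WT. There were 0 for the difference. Bmp4 loss in Mettl3-KO was 0.055 (deep 0.14). The loss difference was 0.34 for Id2 (deep 0.19), -0.17 for Smad6 (deep -0.29) and 0.038 for Smad7.

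Replicate numbers were not used as pairs in the main fits. Correlations of same-numbered deviations, with the shallow libraries included, ran from -0.081 to 0.30 over 15 pairs of groups. The highest, 0.30, was between Mettl3-KO 3 h and WT 1 h, the groups whose replicate 2 is shallow. The next, 0.24, was between Mettl3-KO 1 h and WT 8 h. These values cannot tell whether same-numbered libraries share a culture or batch. With a replicate block, 612 genes were called for label at 0 h, no count of calls among the 8 changed, Id2 and Id3 loss differences were 0.00098 and -0.010, the total change of Id4 was -0.26, and WT total slopes were -0.077 for Id4 and -0.00092 for Smad6.

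With each library left out in turn, 2191 to 5281 genes were called for total RNA, the most without Mettl3-KO 3 h replicate 2. For the total slope in Mettl3-KO it was 0 to 136, for label at 0 h 406 to 1189, and for the loss difference 61 (without WT 8 h replicate 2) to 582. Total changes ran from -0.0027 to 0.26 for Bmpr1a, -0.36 to 0.045 for Id3, -0.44 to 0.44 for Id4 and -0.072 to 0.45 for Smad6. Loss differences ran from -0.070 to 0.041 for Id2, -0.049 to 0.076 for Id3 and -0.67 to 0.18 for Id4, and Id4 label at 0 h from -0.67 to 0.36. Total slopes in Mettl3-KO ran from -0.055 to 0.18 for Bmp4, -0.013 to 0.050 for Id2, -0.011 to 0.033 for Id3 and -0.068 to 0.0037 for Smad6. WT slopes ran from -0.00023 to 0.073 for Bmpr1a, -0.023 to 0.13 for Id1, -0.016 to 0.066 for Id2, -0.053 to 0.068 for Id4 and -0.017 to 0.058 for Smad6. Slope differences ran from -0.11 to 0.13 for Bmp4, -0.051 to 0.021 for Bmpr1a, -0.013 to 0.14 for Id1 and -0.048 to 0.028 for Id2. None of these slopes or differences was past the threshold in 14 libraries.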
